A study of Mus musculus with 8 samples.

Results

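Of the 21165 gene rows in a count table of embryonic mouse cortex, 10 are genes of the mitochondrial genome. They were chosen by symbol as the rows for mt-Nd1, mt-Nd2, mt-Nd3, mt-Nd4, mt-Nd5, mt-Co1, mt-Co2, mt-Co3, mt-Cytb and mt-Atp6, and each encodes a subunit of the respiratory chain or of ATP synthase. The cortices came from 4 embryos lacking the kinase Nuak1 (KO) and 4 wild-type embryos (WT) at E18.5, with no treatment. The KO is constitutive, so every cell type of the dissected cortex lacks the gene, and because it is lethal around birth no later age was taken. The sample labels name 3 litters where the series' design text counts 4, and 2 KO embryos and 1 WT embryo were male. By the labels, litter A gave 2 KO and 2 WT embryos, and litters C and D gave 1 of each genotype. The columns of the table name a genotype and a running number, which ties no library to a litter or a sex, and these names (KO R1 and so on) are used here. The comparison asks whether transcripts from the mitochondrial genome differ in level or in proportion between KO and WT cortex.

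The mitochondrial genome is a small circular DNA in the matrix of the organelle, present in many copies per cell. It is transcribed by its own RNA polymerase into long precursors, most of which are cut at the tRNA genes that lie between the coding genes, and the freed mRNAs receive poly(A) tails. The proteins are made on mitochondrial ribosomes and join subunits encoded in the nucleus to form complexes I, III, IV and V, while complex II is encoded by the nucleus alone. In neurons, ATP from this pathway supports synaptic transmission and axon growth, and NUAK1, a kinase related to AMPK, has been studied there for its action on axon branching and axonal mitochondria.

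In the annotation of NCBIM37, the assembly behind mm9, the mitochondrial chromosome has 16299 bases with 13 protein-coding, 22 tRNA and 2 rRNA genes. All 10 genes lie on the plus strand, and mt-Atp8, mt-Nd4l and mt-Nd6 were not analysed here. From the start of the chromosome they are mt-Nd1 (chrM:2751-3707), mt-Nd2 (chrM:3914-4951), mt-Co1 (chrM:5328-6872), mt-Co2 (chrM:7013-7696), mt-Atp6 (chrM:7927-8607), mt-Co3 (chrM:8607-9390), mt-Nd3 (chrM:9459-9806), mt-Nd4 (chrM:10167-11544), mt-Nd5 (chrM:11742-13565) and mt-Cytb (chrM:14145-15288). The genes have no introns and hardly any space between them. mt-Atp6 begins inside mt-Atp8, with 43 bases in common, and shares its last base with mt-Co3. mt-Nd5 overlaps mt-Nd6, which is read from the opposite strand, by 14 bases.

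The libraries were made from polyadenylated RNA, and the ends of these genes show how closely coding sequence and tail adjoin. In 7 of the 10 genes the annotated sequence closes with a complete stop codon, and in mt-Co3, mt-Nd4 and mt-Cytb it closes with a lone T that becomes a stop codon only when the tail supplies the missing A residues. The last 24 bases of the 3 genes of this kind and of the most highly counted pair with complete stops are shown from NCBIM37, with the stop or its first base in capitals.
mt-Co3 (chrM:9367-9390): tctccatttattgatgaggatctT
mt-Nd4 (chrM:11521-11544): aactaattacaggcctgacaataT
mt-Cytb (chrM:15265-15288): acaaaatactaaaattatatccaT
mt-Co1 (chrM:6849-6872): ccaacctatgtaaaagtaaaaTAA
mt-Atp6 (chrM:8584-8607): ctatatctacatgataatacaTAA

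Several of the genes have copies in nuclear DNA, which bears on what their counts can show. Pieces of mitochondrial DNA inserted into nuclear chromosomes are common in mammals. The longest stretch of adjoining matches was 4654 bases on the minus strand of chromosome 1 (chr1:24618374-24623027), which runs from within mt-Co1 to within mt-Nd4. It is 100% identical over the whole of mt-Co2, mt-Atp6 and mt-Co3, over 345 of the 348 bases of mt-Nd3 and over the first 876 of the 1378 bases of mt-Nd4. A copy of the whole of mt-Co1 on chromosome 2 is 97.605% identical, a copy of mt-Cytb on chromosome 4 is 92.913% identical, and copies of parts of mt-Nd5 reach 95.183% identity. mt-Nd1 had no nuclear match by the alignment used. The first 60 bases of mt-Co2, which has an exact copy and a near copy, and bases 2 to 61 of mt-Cytb, which has only diverged ones, are shown with their nuclear counterparts, all in the direction of the gene and with mismatches to the mitochondrial sequence in capitals.
mt-Co2 (chrM:7013-7072): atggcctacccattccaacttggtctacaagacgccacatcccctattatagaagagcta
mt-Co2 copy (chr1:24622345-24622404, minus strand): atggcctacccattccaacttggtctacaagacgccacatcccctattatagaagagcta
mt-Co2 copy (chr2:22443423-22443482, minus strand): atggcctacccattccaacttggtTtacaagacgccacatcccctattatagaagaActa
mt-Cytb (chrM:14146-14205): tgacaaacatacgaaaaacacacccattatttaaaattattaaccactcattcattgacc
mt-Cytb copy (chr4:79649894-79649953, plus strand): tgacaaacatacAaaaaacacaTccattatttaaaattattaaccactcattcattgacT
The chromosome 1 copy of these mt-Co2 bases has 0 mismatches, the chromosome 2 copy 2 and the chromosome 4 copy of mt-Cytb 3.

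Reads were paired and 100 bases long before trimming. The other read of a pair can settle a position, and trimming shortens reads, but neither was taken into account. Given here is the share of a gene's 100-base stretches that recur exactly on a nuclear chromosome. It shows how much of the gene a single full-length read cannot tell apart from a copy. That share was 100% for mt-Co2, mt-Atp6 and mt-Co3, 98.8% for mt-Nd3, 60.8% for mt-Nd4, 30.8% for mt-Co1 and 3.2% for mt-Nd2, and it was 0% for mt-Nd1, mt-Nd5 and mt-Cytb. With up to 2 mismatches allowed, the share was 71.1% for mt-Co1, 12.1% for mt-Nd2 and 9.6% for mt-Nd5. How reads with several equally good positions were counted is not given in the sources used here. Gm10222 and Gm10925, annotated within the chromosome 1 copy, have no row in the table that was analysed. Counts of the genes with exact copies are therefore uncertain in level, and what part copies played in them was not tested.

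KO libraries held between 11027082 and 27014858 counts and WT libraries between 9643711 and 18940484. Nuak1, the deleted gene, had 14.2 ± 4.35 normalized counts in KO and 1204 ± 260 in WT (mean ± SD of 4 libraries, as in all values below given with ±), so the columns followed their genotype labels. Normalized counts are raw counts brought to a common library size, the mean over the 8 libraries after TMM normalization. All 10 markers each of projection neurons, interneurons and progenitors were detected, as the labelled tissue requires. KO R1 stood apart by its meningeal fibroblast markers, which summed to 654 CPM there (counts scaled to a fixed library total) and to at most 40.07 in the other KO libraries. Replicates are separate embryos, and within a genotype no pair had a chi-square per degree of freedom below 5.728, so no library appeared to be a repeat of another.

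The 10 genes together took a larger share of the library in every KO library than in any WT library. They held 1.92% of all counts in KO R1, 1.71% in KO R2, 1.93% in KO R3 and 1.86% in KO R4. In WT the shares were 1.57% in R1, 1.66% in R2, 1.40% in R3 and 1.65% in R4. The groups did not overlap, although KO R2 and WT R2 differed by less than WT R2 and WT R3 did. The 95% Wilson interval of each share was at most 0.0161 percentage points wide, so counting error, the only error it covers, was small beside the spread between embryos. mt-Co1 and mt-Atp6 made up most of these counts, and without them the other 8 genes held 0.559% ± 0.0246 of KO libraries and 0.494% ± 0.0253 of WT libraries, again with no overlap. The difference in the share of all 10 was 0.285 percentage points, and it lay between 0.229 and 0.333 with any single library left out. In bulk tissue, a larger share of cells rich in mitochondrial RNA cannot be told apart from more such RNA per cell.

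**Figure D1:**
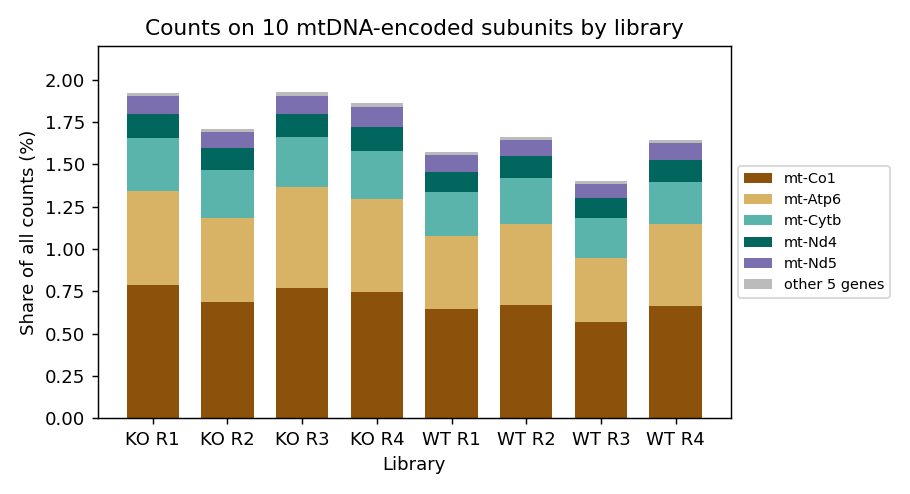
Share of all counts in a library (%) that fell on the 10 mitochondrial genes, as stacked bars for the 4 KO and 4 WT libraries, coloured by gene. The lowest KO bar, at 1.71%, stands above the highest WT bar, at 1.66%, and mt-Co1 and mt-Atp6 are the largest segments of every bar.

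mt-Atp6, the subunit of the proton channel of ATP synthase (complex V), showed the largest fitted difference of the 10. It had 90232, 83220, 100040 and 90506 normalized counts in KO R1 to R4 and 71014, 79015, 62257 and 79011 in WT R1 to R4. Every KO library was above every WT library, and KO R3 was the highest. The log2 fold change of KO over WT was 0.32 (standard error 0.085, 95% interval 0.134 to 0.509), which is 1.25-fold. It had an unadjusted p of 0.00305 and an adjusted p of 0.44 in edgeR's quasi-likelihood test, adjusted by Benjamini-Hochberg over 12699 genes. The same gene had an adjusted p of 0.0454 in DESeq2's Wald test. All of its 100-base stretches recur exactly on chromosome 1.

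Of the 3 subunits of cytochrome c oxidase (complex IV), mt-Co1, the catalytic subunit that holds the site of oxygen reduction, was higher in KO, and the other two had wide intervals that include 0. mt-Co1 had 128704, 115589, 128745 and 122962 normalized counts in KO R1 to R4 and 106687, 111125, 93621 and 107640 in WT R1 to R4. The groups did not overlap, with KO R2 the lowest of KO and WT R2 the highest of WT. Its log2 fold change was 0.24 (standard error 0.0665, 95% interval 0.0968 to 0.39), with an unadjusted p of 0.00378 and an adjusted p of 0.44 in edgeR and of 0.0485 in DESeq2.

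mt-Co2, which carries the copper centre that receives electrons from cytochrome c, was the exception among the 10 genes in its direction. It had 33, 30, 99 and 38 raw counts in KO R1 to R4 and 48, 57, 42 and 21 in WT R1 to R4, and its lowest count of 21 has a 95% Poisson interval of 13 to 32.1. The genotypes overlapped widely, with a log2 fold change of -0.13 (standard error 0.267, 95% interval -0.719 to 0.455). Without KO R4 the log2 fold change was 0.08, so its direction rested on that library. mt-Co3, a core subunit without redox centres, had between 214 and 270 normalized counts in KO and between 202 and 289 in WT. Its groups overlapped, and its log2 fold change was 0.08 (95% interval -0.2 to 0.368).

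mt-Cytb, the cytochrome b of complex III and the sole subunit of that complex encoded in the organelle, also separated the genotypes. It had 51360, 47205, 49409 and 47171 normalized counts in KO R1 to R4 and 43568, 45190, 39246 and 40349 in WT R1 to R4. The lowest KO library exceeded the highest WT library. Its log2 fold change was 0.21 (standard error 0.0603, 95% interval 0.0803 to 0.346), with an unadjusted p of 0.00469 and an adjusted p of 0.451 in edgeR and of 0.0563 in DESeq2. No 100-base stretch of mt-Cytb recurs on a nuclear chromosome, even with 2 mismatches.

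The 5 subunits of NADH dehydrogenase (complex I), all of which lie in its membrane arm, had positive log2 fold changes between 0.11 and 0.31, and the genotypes overlapped for each of them. mt-Nd4 had 23049, 21469, 22561 and 23348 normalized counts in KO R1 to R4 and 19978, 21975, 19243 and 21504 in WT R1 to R4, so KO R2 lay below WT R2 and WT R4. Its log2 fold change was 0.13 (95% interval 0.00263 to 0.255, unadjusted p = 0.0461 in edgeR's test). mt-Nd5 had 17618, 16119, 17709 and 19311 normalized counts in KO and 15785, 15609, 14393 and 16570 in WT. KO R2 was again the KO library within the WT range, and the log2 fold change was 0.18 (95% interval 0.0385 to 0.327, unadjusted p = 0.0176 in edgeR's test).

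mt-Nd1, which sits at the junction of the membrane arm with the peripheral arm, had 2427, 2367, 2521 and 2795 normalized counts in KO and 2503, 2182, 1862 and 1961 in WT. WT R1 lay within the KO range while the other WT libraries were below it, and the log2 fold change was 0.25 (95% interval 0.0492 to 0.447, unadjusted p = 0.019 in edgeR's test). mt-Nd2 ranged from 506 to 604 normalized counts in KO and from 454 to 588 in WT, with a log2 fold change of 0.11 (95% interval -0.091 to 0.32). mt-Nd3 ranged from 137 to 206 in KO and from 114 to 163 in WT, with a log2 fold change of 0.31 (95% interval -0.0281 to 0.651). The intervals of mt-Nd2 and mt-Nd3 include 0. Adjusted p values of the complex I subunits lay between 0.571 and 0.827 in edgeR.

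**Figure D2:**
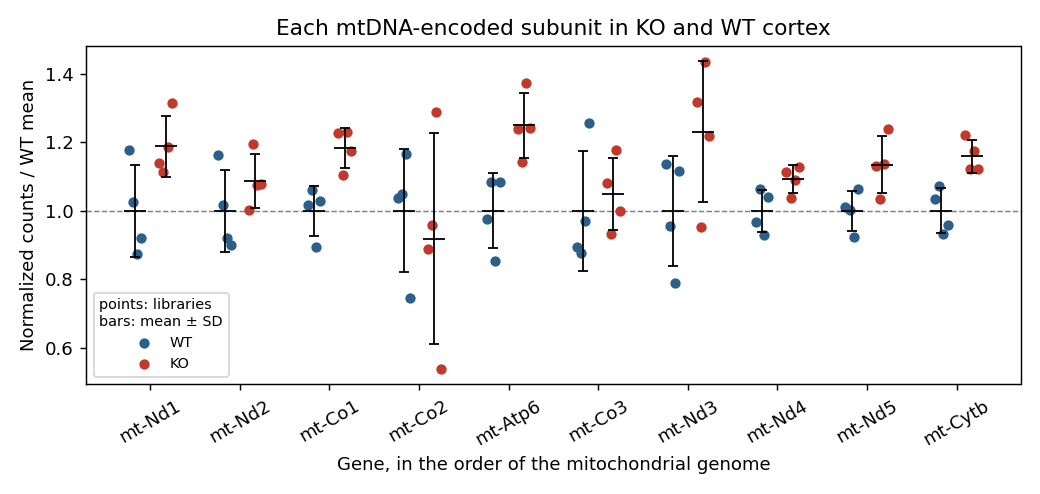
Normalized counts of each gene divided by its WT mean, for the 4 WT (blue) and 4 KO (red) libraries as points with bars for the mean ± SD, in the order of the mitochondrial genome. KO points lie wholly above WT points for mt-Co1, mt-Atp6 and mt-Cytb, and mt-Co2 and mt-Nd3 show the widest scatter.

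All 10 genes passed the filter on low counts, and 9 of them had a positive log2 fold change, where 45.6% of all 12699 genes tested did. Their median log2 fold change was 0.198, beside -0.0117 over all genes tested. With edgeR 0 of the 10 passed an adjusted p of 0.05, which 0.0709% of all genes tested did. At an unadjusted p under 0.05 there were 6, all higher in KO (mt-Atp6, mt-Co1, mt-Cytb, mt-Nd5, mt-Nd1 and mt-Nd4), and the share of all genes tested that met that rule was 4.51% in that direction and 7.69% in either. DESeq2 called 2 of the 10, mt-Atp6 and mt-Co1, at an adjusted p of 0.05. The study asked for a log2 fold change beyond 0.25 in size together with p below 0.05 before adjustment. By that rule 1 of the 10, mt-Atp6, was called in edgeR after TMM scaling, against 2.45% of all genes in the higher direction and 4.25% in either. mt-Nd1, with a log2 fold change just under that size, was called as well with DESeq2, at 0.255, and mt-Nd1 and mt-Co1 were with upper-quartile factors in edgeR. In 3 genes, mt-Co1, mt-Cytb and mt-Atp6, every KO library was above every WT library, which held for 2.64% of all genes tested, while 4.49% had no overlap in either direction. The count of 6 fell to 3 without KO R4 and to 3 without WT R3, the library with the lowest mitochondrial share. Without KO R1, the library with the high meningeal markers, it was 5, with 9 genes higher and a median log2 fold change of 0.194.

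Each gene was also taken as a part of the counts on the 10 genes in its own library, which needs no scaling between libraries. These proportions still depend on how reads with several positions were counted. mt-Co1 held 40.31% ± 0.44 of the counts on the 10 genes in KO and 40.46% ± 0.348 in WT. mt-Atp6 held 29.56% ± 1.05 in KO and 28.07% ± 1.21 in WT, mt-Cytb 15.87% ± 0.603 and 16.28% ± 0.848, and mt-Nd5 5.752% ± 0.362 and 6.029% ± 0.258, each with overlap between genotypes. mt-Nd4 was the single gene of the 10 whose proportion did not overlap, and it was lower in KO. For normalized counts, a different measure, 4.49% of all genes tested had no overlap in either direction. A part of the counts on the 10 genes has no such share over all genes, so how unusual this is was not assessed. The 10 parts share a total, so the larger mean part of mt-Atp6 in KO leaves less for the others. mt-Nd4 made up 7.332%, 7.481%, 7.005% and 7.604% of the counts on the 10 genes in KO R1 to R4 and 7.668%, 7.962%, 8.313% and 8.025% in WT R1 to R4. KO R4 and WT R1 came within 0.1 percentage points of each other, and the difference was not tested. So mt-Nd4 had more counts relative to the library in KO but a smaller part of the mitochondrial counts. The other 5 genes together stayed a small remainder, each under 1% of the mitochondrial counts. There were 0.734 ± 0.0323 counts of mt-Atp6 per count of mt-Co1 in KO and 0.694 ± 0.0344 in WT, with overlap.

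Per length, the counts on the 10 genes covered more than 3 orders of magnitude. mt-Atp6 averaged 7275 CPM per kb of gene over the 8 libraries, mt-Co1 4478, mt-Cytb 2402, mt-Nd4 950.1 and mt-Nd5 551.9. mt-Nd1 followed with 147.1, mt-Nd2 with 30.72, mt-Nd3 with 27.88, mt-Co3 with 18.17 and mt-Co2 with 4.031. Each gene stood above the next in this order in 8 of 8 libraries, except that mt-Nd2 was above mt-Nd3 in 5 of 8, so that pair did not differ beyond its spread. The order was not that of the genome, since mt-Co2 and mt-Co3 lie on either side of mt-Atp6.

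Nor did the level follow the extent of the nuclear copies in any simple way. mt-Atp6, mt-Co3 and mt-Co2 are all exactly copied on chromosome 1, and they occupy the top and the 2 lowest places of the order. mt-Nd1 and mt-Nd2, with 0% and 3.2% of stretches copied, lie lower than mt-Nd4, with 60.8%. CPM per kb depend on how reads that fit several places were treated. Differences in level between these genes can therefore not be read as differences between transcripts. The comparison of KO with WT sets each gene against itself. For genes with exact copies it still rests on counts whose source is uncertain, and what part copies played was not tested.

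**Figure D3:**
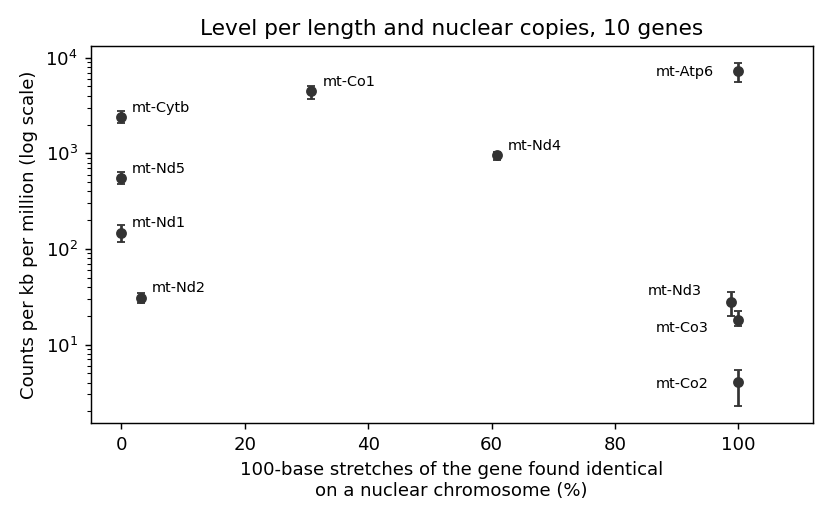
Mean CPM per kb of gene over 8 libraries (log axis, bars from the lowest to the highest library) against the share of 100-base stretches of each gene found identical on a nuclear chromosome (%). At 100% the genes run from mt-Co2 at 4.031 to mt-Atp6 at 7275, and at 0% from mt-Nd1 at 147.1 to mt-Cytb at 2402.

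Within a genotype, the 10 genes did not all vary alike. The residual SD on the log2 scale was 0.0737 for mt-Nd4, 0.0789 for mt-Cytb, 0.0931 for mt-Co1 and 0.096 for mt-Nd5, and it reached 0.246 for mt-Nd3 and 0.398 for mt-Co2, the gene with the fewest counts. KO R2 was the lowest KO library for 7 of the 10 genes and WT R3 the lowest WT library for 7, while KO R3 was the highest KO library for 5. With the genotype means removed, mt-Co1 and mt-Atp6 had a Pearson correlation of 0.906 over the 8 libraries. At the other end were mt-Nd2 with mt-Co3 at -0.695 and mt-Nd5 with mt-Co2 at -0.692. These libraries share their scaling factors between genes, and the values are a description only.

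Among 6154 genes outside the mitochondrial genome with a mean of at least 500 normalized counts, the closest in pattern to the mean log2 CPM of the 10 genes was 5033414D02Rik, with a Pearson correlation of 0.979 over the 8 libraries. It was followed by Psmb4, a beta subunit of the proteasome, at 0.961, Eif3e, a subunit of translation initiation factor eIF3, at 0.961, Uqcrc2, a core protein of complex III, at 0.959, and Snrpd1, an Sm protein of the spliceosome, at 0.957. They were the highest of many correlations over few libraries, and the libraries differ by genotype. Their log2 fold changes ran from 0.09 for Uqcrc2 (5923 ± 171 normalized counts in KO and 5581 ± 240 in WT) to 0.18 for Eif3e (8942 ± 478 and 7873 ± 445). None of these 5 genes passed an adjusted p of 0.05, with values from 0.526 to 0.75 in edgeR.

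Subunits of the same complexes that are encoded in the nucleus had positive medians too, each smaller than that of the mitochondrial genes with all libraries in the fit. That order did not hold for complex IV without KO R4 (0.184 against 0.167) or without WT R4 (0.238 against 0.215). Of 76 such subunits tested, 62 had a positive log2 fold change, where 45.6% of all genes tested did, and their median was 0.112. Their summed counts overlapped, with 11540 to 12940 CPM in KO and 10690 to 12760 in WT. KO R1 held the highest sum, and the other KO libraries reached at most 12530. Without KO R1 the median of complex IV was 0.121 in place of 0.168. At an unadjusted p under 0.05 there were 18 higher and 0 lower in KO, beside 4.51% of all genes tested higher and 3.18% lower, and 0 passed an adjusted p of 0.05. KO and WT did not overlap in 2 of the 76, both higher in KO, against 2.64% of all genes in that direction.

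In complex IV 11 of 12 nuclear subunits were on the positive side, with a median of 0.168, and 5 had an unadjusted p under 0.05. Cox7c had 3022 ± 312 normalized counts in KO and 2529 ± 245 in WT (log2 fold change 0.26, standard error 0.0865), and Cox7a2 had 3233 ± 360 and 2682 ± 308 (0.27, standard error 0.0934). Both are small accessory subunits of cytochrome c oxidase, and both overlapped between genotypes.

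In complex I 30 of 36 were on the positive side, with a median of 0.13, and 8 had an unadjusted p under 0.05. Ndufb3 had 1149 ± 45.4 normalized counts in KO and 991 ± 32.3 in WT (log2 fold change 0.21, standard error 0.0543), with no overlap. Ndufa6 had 1033 ± 96.5 in KO and 864 ± 69.2 in WT (0.26, standard error 0.0809), with overlap. These are accessory subunits of NADH dehydrogenase.

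Complex V had 13 of 16 on the positive side, a median of 0.104 and 3 at an unadjusted p under 0.05, and complex III had 6 of 8, a median of 0.0904 and 1. The leading genes were Atp5l (log2 fold change 0.21, standard error 0.0863) and Usmg5 (0.22, standard error 0.0983), subunits of the membrane part of ATP synthase, and Uqcrb (0.25, standard error 0.0972) and Uqcrh (0.16, standard error 0.0821), accessory subunits of complex III. Complex II, which has no subunit from the organelle, had the lowest median, 0.0267, with 2 of 4 on the positive side. Its membrane anchor Sdhd had a log2 fold change of 0.16 (standard error 0.0734), and its iron-sulfur subunit Sdhb of 0.08 (standard error 0.0596). Differences between these medians were not tested.

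**Figure D4:**
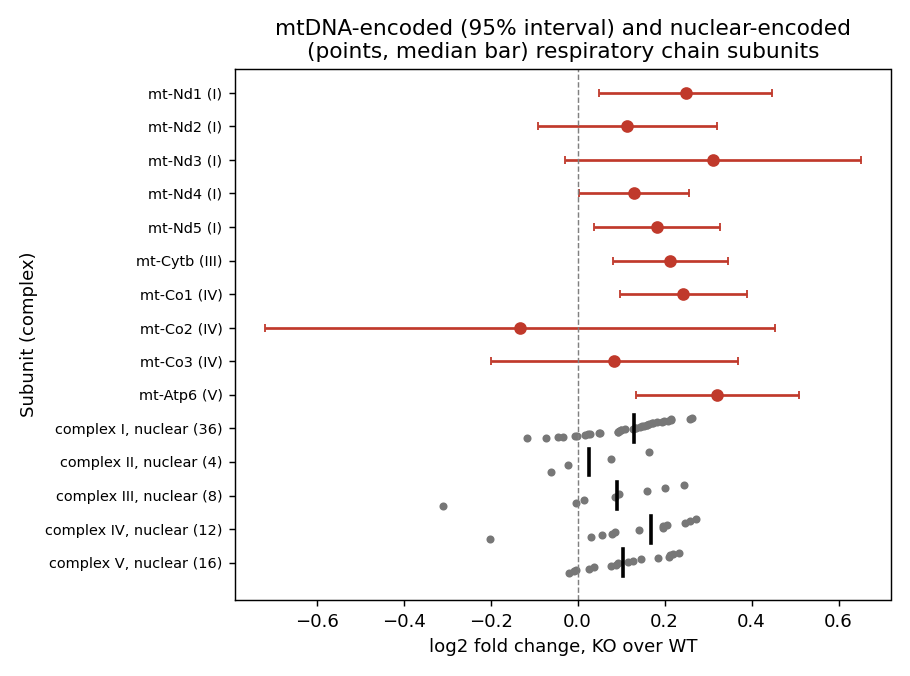
Log2 fold change of KO over WT for the 10 subunits encoded by mitochondrial DNA (red points with 95% intervals, complex in brackets) and for nuclear-encoded subunits of each complex (grey points, 1 per gene, with a black bar at the median and the number of genes in brackets). The intervals of 6 mitochondrial genes lie above 0, and the medians of the nuclear subunits run from 0.0267 in complex II to 0.168 in complex IV.

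Genes that act on the mitochondrial genome itself had median log2 fold changes between -0.0434 and 0.0639. Among 10 genes of mitochondrial transcription, 7 were on the positive side with a median log2 fold change of 0.0639, and 0 reached an unadjusted p under 0.05 in edgeR in either direction. The smallest p values belonged to the transcription factor Tfb2m, with 712 ± 43.3 normalized counts in KO and 649 ± 45.3 in WT (log2 fold change 0.13, standard error 0.073), and to the mitochondrial RNA polymerase Polrmt, with 902 ± 32.1 and 843 ± 65.7 (0.10, standard error 0.0665).

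Of 19 tested genes of mitochondrial RNA processing, polyadenylation and turnover, 5 were on the positive side, with a median of -0.0434. Supv3l1, a helicase of the mitochondrial RNA degradosome, was the single gene of this list at an unadjusted p under 0.05 (0.0264 in edgeR's test). It had 623 ± 18.6 normalized counts in KO and 692 ± 26.9 in WT, with every KO library below every WT library and a log2 fold change of -0.15 (standard error 0.0597). Rg9mtd1, a subunit of the mitochondrial RNase P that frees tRNAs at their 5′ ends, had a log2 fold change of 0.31 with a standard error of 0.18 and overlapping groups. At an unadjusted p under 0.05 in edgeR, 3.18% of all 12699 genes tested were lower in KO, and 235 were lower without overlap.

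For replication of mitochondrial DNA, 5 of 14 genes were on the positive side, with a median of -0.0102. Top3a, a topoisomerase that also acts in the nucleus, had 379 ± 25.2 normalized counts in KO and 432 ± 23.6 in WT without overlap (log2 fold change -0.19, standard error 0.0789, unadjusted p = 0.0345 in edgeR's test). Of all 12699 genes tested, 3.18% were lower at an unadjusted p under 0.05 in edgeR, and 235 were lower without overlap. Ssbp1, which coats single-stranded mitochondrial DNA, had a log2 fold change of 0.08 (standard error 0.0667). Of 17 genes that are often read as a measure of mitochondrial mass, such as citrate synthase and porins, 9 were on the positive side with a median of 0.00113 and 0 at an unadjusted p under 0.05 in edgeR. None of the genes of these 4 lists passed an adjusted p of 0.05 in edgeR.

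Markers of other cell types were summed in each library beside the mitochondrial share. The 10 projection neuron markers summed to between 1357 and 1473 CPM in KO and between 1007 and 1332 in WT, with no overlap, although only 6 of the 10 had positive log2 fold changes. Meningeal fibroblast markers summed to between 28.2 and 654 in KO and between 22.5 and 31.13 in WT, endothelial markers to between 232.6 and 380.8 and between 233 and 262.7, and microglia markers to between 72.15 and 118.5 and between 62.1 and 91.98. Red blood cell markers ranged from 103 to 421.8 in KO and from 98.82 to 231 in WT, with Hbb-bh1 at 0 in every library. Interneuron markers ranged from 197 to 209.8 in KO and from 193.2 to 256.6 in WT, progenitor markers from 1485 to 1785 and from 1508 to 2058, and choroid plexus markers reached at most 5.569, in KO R1. Positive log2 fold changes were found in 6 of 6 tested meningeal fibroblast markers, 10 of 10 endothelial and 9 of 9 microglial markers. The counts were 4 of 5 for red blood cells and 1 of 10 each for interneurons and progenitors, beside 45.6% of all genes tested. KO R1 held the highest meningeal, endothelial and microglial sums, and the other KO libraries reached at most 40.07, 285.8 and 98.96 CPM. For red blood cell markers KO R1 had 338.7 CPM, below the highest KO library. The part of cell composition in the mitochondrial share was not tested.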

How the data were processed

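Poly(A) RNA of 4 Nuak1 KO and 4 WT cortices was sequenced with a stranded kit as paired reads. Per the labels and the study's methods, Cutadapt 1.13 and Prinseq were used for trimming, TopHat2 2.0.13 for mapping to mm9, SAMtools 0.1.19 for handling alignments and HTSeq-count for counting by gene, and the authors deposited raw counts with no scaling. The annotation, the strand setting and the handling of reads with several positions are not given in the sources used here. The table has 21165 rows, 4641 of them with no count, and 0 lack a gene name. All columns of libraries were used (0 left out). Totals lay between 9643711 and 27014858 counts.

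KO was compared with WT by the quasi-likelihood test of edgeR 4.0.16 in R 4.3.3, after TMM scaling and the filter filterByExpr, and p was adjusted by Benjamini-Hochberg over 12699 genes. The standard error is the size of the log2 fold change divided by the square root of F, and intervals are 95%. The Wald test of DESeq2 1.42.0, which the study used, served as an alternative. Correlations used log2 CPM with a prior count of 2. Gene sequences and positions came from NCBIM37, the assembly behind mm9, and were aligned to its nuclear chromosomes with BLAST 2.17.0 (megablast, word size 28). The scripts were tested on simulated counts. Of 50 genes changed by 0.2 in log2, 3 were called, against 23 of 50 changed by 0.5 and 46 of 50 changed by 1. Small changes were thus mostly missed there.

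The members and lists were chosen with earlier results of these data known. Genes named are the 10 members, Nuak1, the 5 genes closest in pattern over the 8 libraries, and the 2 with the smallest p of each nuclear subunit list and each list of regulators of mitochondrial DNA. Markers were given as lists. Columns could not be assigned to litters or sexes by their names, and p-values measure the spread between embryos. Same-numbered KO and WT columns had correlations of their deviations from the genotype means of -0.0248, -0.14, 0.133 and 0.266. Differently numbered columns had correlations from -0.327 to 0.316. With so few columns, these values cannot show whether the numbers pair the libraries. Alternatives were DESeq2, other scaling factors, other filters on low counts, a block by running number and each library left out.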

Additional observations from a re-analysis of the deposited data

Results flagged for a closer look

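In 3 of 60 groups of 4 libraries examined, 1 library stood farther from the others than Dixon's 95% critical value for 4 values allows, and about 1 in 20, or 3, would be expected by chance. The part of the mitochondrial counts on mt-Nd5 was 6.289% in KO R4, above 5.604%, 5.617% and 5.499% in the other KO libraries and above the highest WT value of 6.218%. Meningeal fibroblast markers summed to 654 CPM in KO R1, where the other KO libraries had at most 40.07. Choroid plexus markers summed to 5.569 CPM in KO R1 and to at most 1.179 in the other KO libraries. Their part in the mitochondrial counts was not tested. Without KO R1 the median log2 fold change of the 10 mitochondrial genes was 0.194, with 9 higher, and the difference in their share of the library was 0.262 percentage points.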

How the results depend on the processing

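The direction of the 10 mitochondrial genes held in every setting tried except that mt-Co2 turned to 0.077 without KO R4, within a range from -0.38 without KO R3 for single libraries left out. Of 160 values of single genes under alternatives, 157 stayed on their side of the threshold with their direction, and 2 passed it, mt-Co1 (0.25, adjusted p = 0.0485) and mt-Atp6 (0.33, adjusted p = 0.0454), both with DESeq2. DESeq2 raised the number of the 10 genes past an adjusted p of 0.05 from 0 to 2, and that of all genes from 9 to 69. With single libraries left out, the number of all genes past an adjusted p of 0.05 ran from 2 without KO R3 to 11 without WT R4, with 3 without KO R4, 4 without WT R1, 4 without WT R2 and 3 without WT R3. Genes at the thresholds of the study ran from 426 without WT R3 to 847 without WT R4, from 540 with all libraries. By those thresholds mt-Atp6 was called in every setting, with 2 of the 10 genes called with DESeq2 or with its size factors (mt-Nd1 added), 3 with upper-quartile factors, with no filter or with at least 10 counts in every library (mt-Nd1 and mt-Co1 added), and 1 to 4 with single libraries left out, 4 being without KO R2. The number of the 10 genes at an unadjusted p under 0.05 ran from 3 without KO R4 or WT R3 to 7, and their median log2 fold change from 0.167 to 0.239. The smallest adjusted p of any of them in these fits was 0.232, without WT R4. The cause of these shifts was not tested. Across the scalings, from library totals alone to factors without mitochondrial rows, the median stayed between 0.191 and 0.208.

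With the running number as a replicate block in edgeR, 6 genes in all passed an adjusted p of 0.05 and 566 the thresholds of the study, and 5 of the 10 mitochondrial genes had an unadjusted p under 0.05, with a median of 0.198 and a smallest adjusted p of 0.539. Under the block mt-Nd4 no longer had an unadjusted p under 0.05, and mt-Nd1 came to pass the thresholds of the study, with a log2 fold change of 0.255 in place of 0.248. What the numbers mark is not given in the labels.

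Depth limits mt-Co2 most, with 21 to 99 counts per library, while mt-Co1 had at least 63727. Exact nuclear copies limit what the counts of mt-Atp6, mt-Nd3, mt-Co3 and mt-Co2 show, and litter and sex could not be set against genotype.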
